A study of Drosophila melanogaster with 6 samples.

Results

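The summits described here were the 726 positions of strongest Dwg enrichment that lay between protein-coding genes and more than 1000 bp from every protein-coding transcript start. They were 6.63% of the 10950 summits called for Flag-Dwg against the IgG control in S2R+ cells, a Drosophila line of embryonic origin with blood cell features. The series held 2 libraries of DNA precipitated with anti-Flag from cells expressing Flag-dwg, 2 IgG control libraries and 2 input libraries, all from S2R+ cells. The level of the tagged protein relative to the cells' own Dwg is not given in the sources used here. The files gave 1 list of summits per kind of control and no values per library, so no value below has a replicate error, and the sequencing depth behind them is unknown.

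Dwg (deformed wings, also called Zw5) is a zinc finger protein that binds chromatin insulators, DNA elements that block an enhancer from acting on a promoter placed beyond them and that help to fold chromosomes into loops. Several Drosophila insulator proteins bind mainly close to promoters. Positions far from any coding promoter can hold enhancers, domain borders, the ends of transcripts, or the promoters of RNAs that code for no protein, such as microRNA precursors and long non-coding RNAs (lncRNAs).

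The DNA at 3 of the 4 highest of these summits is printed first, to show what the strongest sites look like. Each runs 50 bp to each side of the summit on the plus strand of dm6 and is named by the nearest protein-coding start, and none of the 3 held the letters CATTCG or their complement, which would stand in capitals.
trbl, chr3L:20404061-20404161: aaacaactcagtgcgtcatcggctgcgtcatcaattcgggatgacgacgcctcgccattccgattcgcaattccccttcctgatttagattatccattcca
Ids, chr3L:3380338-3380438: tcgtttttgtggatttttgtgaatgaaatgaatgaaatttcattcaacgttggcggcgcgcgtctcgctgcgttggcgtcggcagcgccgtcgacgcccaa
sty, chr3L:3400816-3400916: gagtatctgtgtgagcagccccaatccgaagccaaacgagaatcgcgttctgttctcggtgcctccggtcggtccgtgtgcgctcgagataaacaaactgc

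The next 4 were high-scoring summits of the same set that did hold CATTCG or its complement CGAATG, given in capitals. This word was picked after its values were seen, because its longer forms were frequent at the strongest summits near starts, and its shares are given further on.
CG43401, chr2L:1433992-1434092: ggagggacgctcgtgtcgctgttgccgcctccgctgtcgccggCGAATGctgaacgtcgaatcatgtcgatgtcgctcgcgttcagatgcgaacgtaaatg
drn, chr3R:9337695-9337795: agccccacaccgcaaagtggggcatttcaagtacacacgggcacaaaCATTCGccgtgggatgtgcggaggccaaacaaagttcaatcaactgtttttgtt
Gr93d, chr3R:21848894-21848994: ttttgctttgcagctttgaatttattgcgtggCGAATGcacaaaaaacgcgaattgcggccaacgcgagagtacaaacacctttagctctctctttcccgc
mah, chr3R:24951893-24951993: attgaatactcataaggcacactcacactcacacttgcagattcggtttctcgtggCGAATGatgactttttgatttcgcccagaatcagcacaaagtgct

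The last 3 were summits within 30 bp of the annotated start of a non-coding gene, printed on the plus strand with the transcribed bases of that gene in capitals. Uhg3 hosts small nucleolar RNAs in its introns, and roX2 is one of the RNAs that carry the dosage compensation complex to the male X chromosome. The first 2 genes read rightward from the first capital, and lncRNA:CR44507 reads leftward.
Uhg3, chr2L:20647485-20647585: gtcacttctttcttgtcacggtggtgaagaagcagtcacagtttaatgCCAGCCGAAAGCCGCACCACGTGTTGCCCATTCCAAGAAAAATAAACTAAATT
lncRNA:roX2, chrX:11579026-11579126: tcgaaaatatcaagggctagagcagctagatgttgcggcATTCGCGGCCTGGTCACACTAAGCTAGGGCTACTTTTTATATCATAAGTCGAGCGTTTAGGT
lncRNA:CR44507, chrX:8707979-8708079: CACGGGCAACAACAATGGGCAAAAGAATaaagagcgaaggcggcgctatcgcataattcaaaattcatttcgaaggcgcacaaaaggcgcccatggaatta

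The score of a summit was −log10 of the q-value that MACS2 gave to the enrichment, so a higher score stands for a smaller q. The 726 intergenic summits had a median score of 10.7 with quartiles of 5.03 and 24.2, and the highest was 537.2. Their median lay below the 11.9 of the 2012 summits in introns more than 1000 bp from starts and the 15.7 of the 6866 summits within 1000 bp of starts, and above the 7.18 of the 1346 summits in exons far from starts. Of the intergenic summits 217 (29.9%) scored at least 20, against 29.5% in introns, 16.8% in exons and 42.9% near starts. Among the 1000 highest summits of the whole list, 38 were intergenic, which was 5.23% of the intergenic class. This share was 3.73% in introns, 2.7% in exons, 12.4% in the class near starts and 9.13% over all summits.

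The highest intergenic summit scored 537.2 and ranked 36 of all 10950. It lay at chr3L:20404111, 2502 bp from the start of trbl, a pseudokinase that slows cell division by promoting the breakdown of String, and 159 bp upstream of lncRNA:CR45973. The second scored 376.6 and the fourth 253.6, and both lay in the gap between the converging genes Ids, a sulfatase, and sty, the Sprouty inhibitor of receptor tyrosine kinase signalling. The first of this pair was 305 bp past the 3′ end of Ids and the other 287 bp past the 3′ end of sty, at opposite edges of a gap of 21069 bp. The third, at 294.9, lay inside lncRNA:CR43334 and 1612 bp before the hairpin of the bantam microRNA (mir-ban). The ninth, at 172.4, lay 5143 bp beyond that hairpin.

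Of the remaining summits in the top 10, one at 236.3 lay between the converging genes Cdc7, a replication kinase, and CG3224. One at 206.5 lay between CG43401 and CG43402. One at 189.8 lay between CG34133 and CG31038. One at 181.8 lay between side-IV and CG12538 and 296 bp inside the antisense RNA asRNA:CR17025. The tenth, at 171.3, lay between Hacd1, an enzyme of fatty acid elongation, and Rh5, a rhodopsin of the eye. All 10 had a summit at the identical base in the list called against input, 5 of the 10 were on 3L, and 4 lay within 500 bp of the 3′ end of a coding gene.

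The summits thinned out with distance from coding starts. Their median distance to the nearest protein-coding start was 3370 bp with quartiles of 1803 and 8273 bp. Per megabase of the DNA that the rule allows (between coding genes and over 1000 bp from starts, 37.67 Mb in all) there were 57.5 summits at 1000 to 2000 bp, 29.5 at 2000 to 5000 bp, 15.8 at 5000 to 10000 bp, 17.3 at 10000 to 20000 bp and 2.21 beyond 20000 bp. The scores moved less than the density. Their medians in the same order of distance were 12.9, 10.4, 10.5, 9.9 and 8.67, and summits of 253.6 and 54.03 were still found at 10000 to 20000 bp and beyond 20000 bp as the highest of those ranges. The 3 farthest lay 57892 and 48810 bp from CG12362 and 44911 bp from vvl, a POU-domain transcription factor, with scores of 10.49, 7.963 and 4.988. The summit of 7.963 lay 11 bp upstream of an annotated start of lncRNA:CR46006. At the limit of the rule, the nearest summits inside lay 1008, 1009 and 1010 bp from the starts of CG8501, slam and b, with scores of 13.95, 28.61 and 6.318, and the nearest outside lay 997, 991 and 982 bp from Glut4EF, e(y)2b and Xrp1, with scores of 69.09, 4.92 and 7.841.

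**Figure D1:**
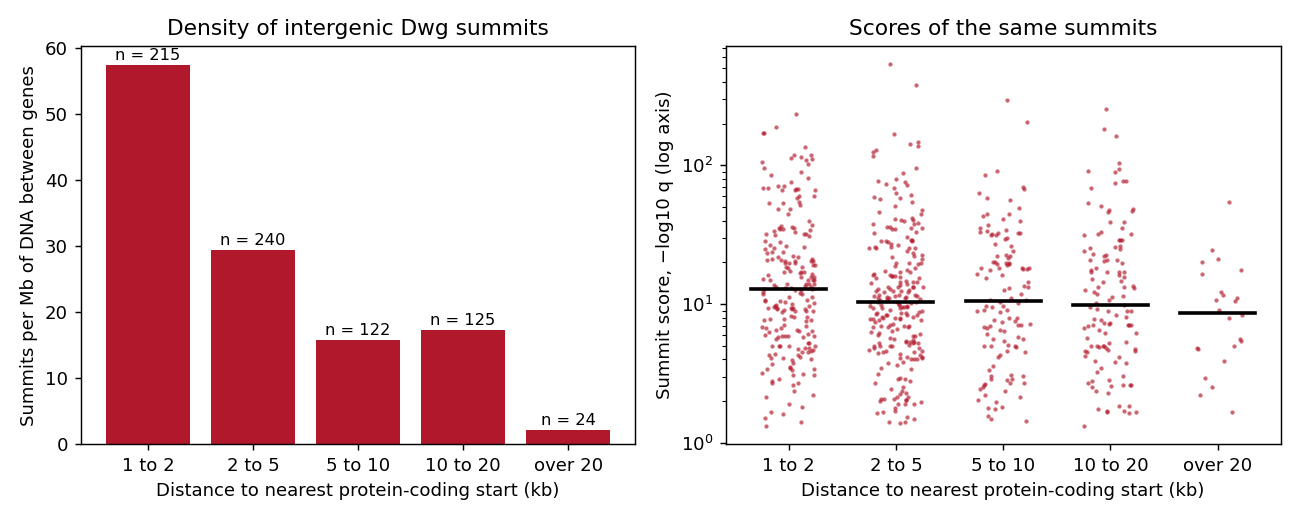
Left, intergenic Dwg summits per megabase of DNA between coding genes, by distance to the nearest protein-coding start in kb (n, number of summits). Right, the score of each summit as −log10 q on a log axis in the same ranges, with the median as a black line. The density was 57.5 per Mb at 1 to 2 kb and 2.21 beyond 20 kb, while the median score lay between 8.67 and 12.9.

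The density also differed among chromosome arms. The small chromosome 4 held 16 of these summits in 0.2728 Mb, or 58.65 per Mb, against 23.31 on 3R, 21.17 on 3L, 17.6 on 2R, 16.83 on 2L and 14.12 on X. Of the 16, 7 lay in a single gap, between dati and lgs. The highest on chromosome 4 was 34.54, between Actbeta, an activin ligand, and sv, a Pax transcription factor. Chromosome 4 had 23.9% of its 67 summits in the intergenic class, and X, with 4.55% of its 1823, had the lowest share.

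Many of the summits stood in groups. Another intergenic summit lay within 1000 bp of 276 of the 726 (38.0%), and the median distance to the next one was 1626 bp. They fell into 389 of the 4308 gaps between coding genes that hold DNA the rule allows. Of these 389 gaps 251 held a single summit and 17 held 5 or more. The 5 gaps with most held 84 summits, 11.6% of all.

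The fullest gap, with 22 summits in 39695 bp, separated hairy (hry), a repressor of the pair-rule class, from SrpRbeta, a subunit of the signal recognition particle receptor. Its scores had a lowest value of 1.658, a median of 18.06 and a highest of 161.5, and 19 of the 22 had a summit in the input list within 100 bp. The highest of them lay 12844 bp from the hry start. One of the lowest, at 7.857, lay 7 bp from the start of lncRNA:CR44526, the single non-coding gene of the gap.

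Another group surrounded bantam, a microRNA that promotes growth and blocks cell death. Within 15000 bp of the bantam hairpin there were 17 intergenic summits. After the pair in the top 10, the highest was one of 103.5 that lay 11305 bp before the hairpin. Between the hairpin and 5 kb beyond it, 6 further summits scored between 14.76 and 36.13. The gap between CG17047 and CG17048 held 19 summits and mir-184, with a median of 10.68 and a highest of 89.17, and the Ids to sty gap held 13 with a median of 31.58. The gap between hng3 and CG13898 held 9, with a median of 13.44 and a highest of 93.67.

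**Figure D2:**
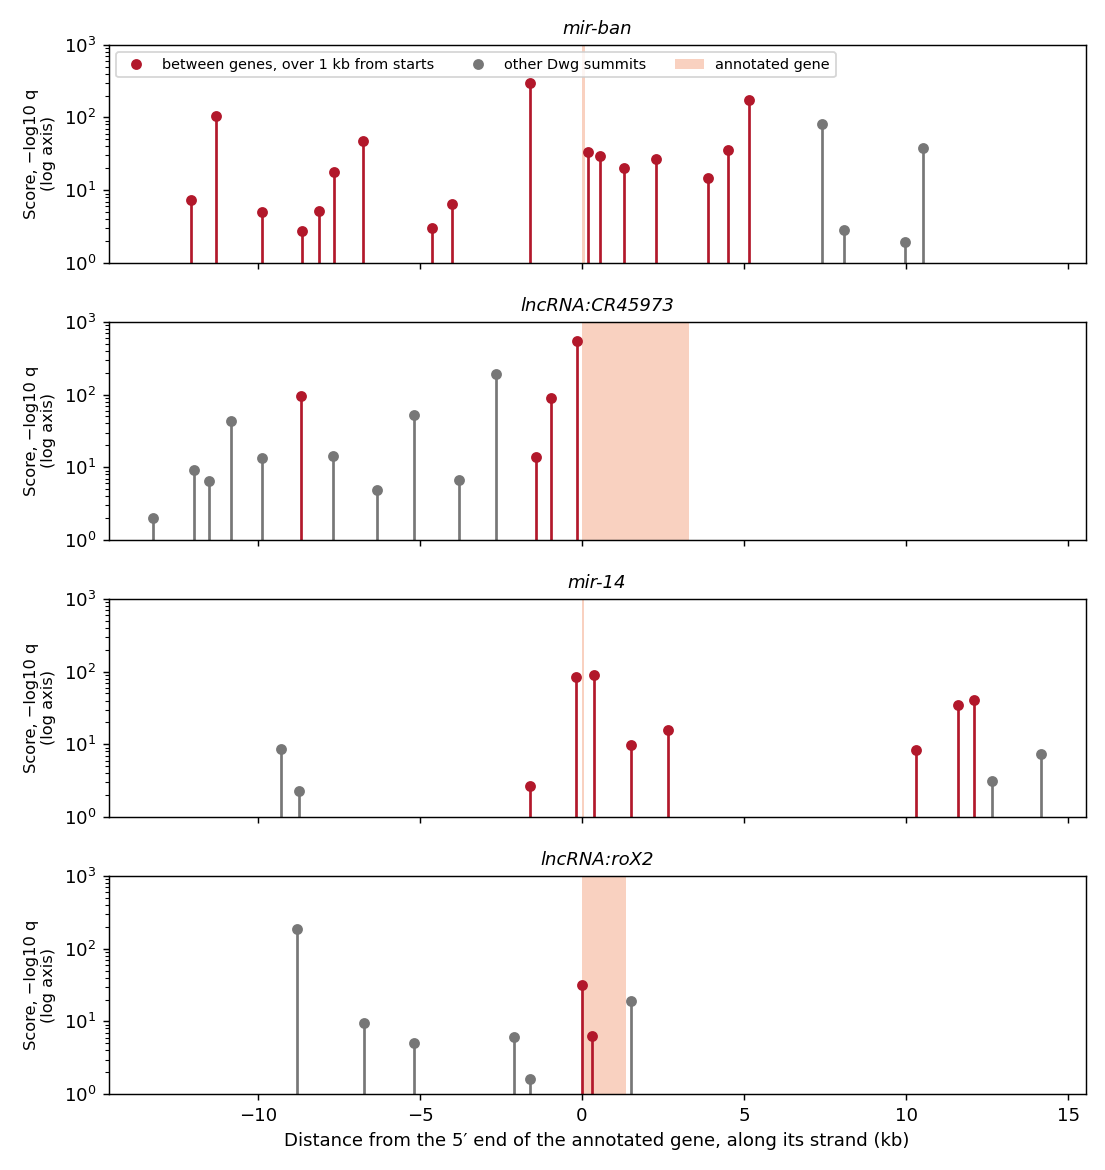
Scores of Dwg summits (−log10 q, log axis) around 4 non-coding genes, by distance in kb from the 5′ end of the annotated gene along its strand. Intergenic summits far from coding starts are red, other Dwg summits grey, and the annotated gene is shaded. At mir-ban 17 of 21 summits in view were intergenic, and at mir-14 8 of 12, while at lncRNA:CR45973 the highest summit of all the intergenic ones (537.2) stood just before the gene.

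Starts of non-coding genes lay close to a minority of the summits. Of the 726, 81 (11.2%, 95% Wilson interval 9.07 to 13.7%) lay within 500 bp of one, and they belonged to 72 genes. This share was 2.93% for summits in introns far from starts, 3.05% in exons far from starts and 4.50% near starts, and each difference passed two-sided Fisher's exact tests with Benjamini-Hochberg adjustment over 9 comparisons (adjusted p = 8.37e-15 against introns, 2.58e-12 against exons and 1.27e-11 against the class near starts). The Fisher tests and Wilson intervals here and below count each summit as independent, although many stood in groups. With 1 summit of a class kept in any 1000 bp, an alternative chosen after seeing the data, the share was 10.9%. It was then 2.93% in introns, 3.28% in exons and 4.41% near starts. Of 3910 annotated non-coding starts 57.3% lay outside coding genes, where the rule places its summits, and the part of this in the differences was not tested. Within the DNA the rule allows, the 500 bp around non-coding starts made up 3.87% of the bases and held 55.6 summits per Mb, against 17.8 per Mb elsewhere. In bases that are not repeat-masked and lie within 20000 bp of a coding start the densities were 65.6 and 28.8 per Mb. The median score was 14.0 within 500 bp of a non-coding start and 10.5 elsewhere, but within 100 bp, with 21 summits, it was 10.4, against 10.7 elsewhere. Of the 81, 48 lay on the transcribed side of the start and 33 upstream.

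Most of the 81 were at lncRNA genes, with 63 summits at 55 of 1944 annotated genes. This was also the most numerous kind of non-coding gene. The highest after lncRNA:CR45973 was at lncRNA:CR45677, with 96.33 at 240 bp. At roX2 the summit of 32.04 lay 11 bp from the annotated start and one of 6.376 lay 307 bp inside the gene, and Uhg3 had a summit of 105.0 at 2 bp. Antisense RNAs had 6 summits at 6 of 503 genes, led by asRNA:CR17025 at 181.8 and asRNA:CR46135 at 79.86. Pseudogenes had 3 summits at 3 of 268 genes, led by CR42490 at 143.7 and CR43281 at 28.76.

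MicroRNA hairpins had 5 summits at 4 of 260 genes. The hairpin is cut from a longer transcript, so distances to its end are not distances to a transcription start. The hairpin of mir-14, which restrains cell death and fat storage, lay between a pair of strong summits, one of 84.6 at 179 bp before it and one of 90.8 at 361 bp after its first base. The summit next to mir-ban scored 33.1, that next to mir-184 10.68 and that next to mir-282 8.677. Single summits were found at the spliceosomal snRNA:U6:96Ac, with 19.53 at 105 bp before the start, at snoRNA:U3:54Aa with 18.29 and at tRNA:Ala-AGC-2-11 with 2.053. Annotated were 32 snRNA, 269 snoRNA and 290 tRNA genes. U6, U3 and tRNA genes have near-identical copies, and reads that map to several copies were not kept by the authors, so signal inside these genes is uncertain. No summit lay within 500 bp of the start of any of the 99 annotated ribosomal RNA genes, which are repeated as well.

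The ends of coding genes were another frequent position. Of the 726 summits 113 (15.6%, Wilson interval 13.1 to 18.4%) lay within 500 bp of an annotated protein-coding 3′ end, in 3.88% of the DNA allowed. The density there was 77.2 per Mb, against 16.9 per Mb elsewhere, and 94.4 and 27.0 per Mb in unmasked DNA within 20000 bp of a coding start. The density was also higher nearer to coding starts, as given above, and the part of that nearness in these values was not tested. The median score at 3′ ends was 12.8, against 10.5 elsewhere. By the orientation of the flanking genes there were 23.4 summits per Mb between converging genes, 19.4 between genes in tandem and 19.0 between diverging genes.

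Repeats held fewer summits than their share of the DNA. The summit base was repeat-masked in 64 of the 726 (8.82%), while 26.6% of the DNA allowed was masked. Annotated transposable elements made up 10.9% of it and held 8 summits. The highest of the 8, at 88.36, lay in a hobo element 3464 bp from e(y)2b, and another of 20.33 lay in a 1360 element on chromosome 4. The authors kept only uniquely mapped reads. The masked share was higher than in exons (4.24%, adjusted p = 8.47e-05) and near starts (5.16%, adjusted p = 0.000162), and it did not differ detectably from introns (8.90%, adjusted p = 1.0, Fisher's exact tests). Among summits scoring at least 20 the masked share was 6.45%, against 7.97% in exons (adjusted p = 0.585) and 4.79% near starts (adjusted p = 0.46, Fisher's exact tests).

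Most of the summits were found again in the list called against input DNA. Of the 726, 625 (86.1%, Wilson interval 83.4 to 88.4%) had a summit of the input list within 100 bp, and 420 had one at the identical base. The share was 88.5% in introns, 72.7% in exons and 89.3% near starts, so that it was higher than in exons (adjusted p = 2.8e-12), lower than near starts (adjusted p = 0.0162) and not detectably different from introns (adjusted p = 0.109, Fisher's exact tests). It was lowest at low scores in each class. Of intergenic summits scoring under 5, 67.6% were shared, against 74.4% in introns, 50.4% in exons and 72.4% near starts, and of those scoring 50 or more, 96.3% were shared, against 95.8% in introns, all 74 in exons and 98.8% near starts. Introns had their highest share, 96.8%, at scores of 20 to 50. At scores of at least 20 the shares were 95.4% for intergenic summits and 96.9% in exons (adjusted p = 0.585), the reverse order of that over all scores, and 97.2% near starts (adjusted p = 0.311, Fisher's exact tests). The series holds a single set of ChIP libraries, so the pair of lists was taken to rest on it and a shared summit is not an independent replicate. How the libraries were pooled is not given in the sources used here.

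The 101 summits without a partner had a median score of 4.55, against 12.3 for the others. The highest of the 101 was one of 90.23 in the gap next to trbl, 802 bp from the highest summit of all, followed by 77.14 near Rh5 and 76.41 near zfh1, a zinc finger and homeodomain repressor. By the same rule the input list gave 1022 summits of its 12971, and 397 of these had no IgG-list summit within 100 bp and a median score of 7.98.

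**Figure D3:**
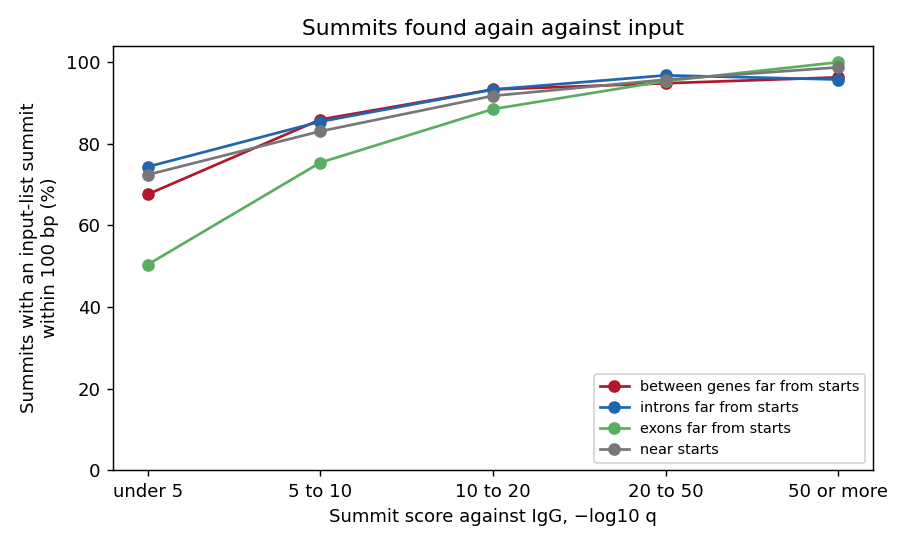
Share of summits with a summit of the input list within 100 bp (%), by score against IgG (−log10 q), for the intergenic summits and the other classes. In the intergenic class it was 67.6% under a score of 5 and 96.3% at 50 or more, and all 4 classes lay above 95% at 50 or more.

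The DNA at the summits was richer in G and C than the DNA beside it. Windows reaching 50 bp to each side of the summit had a mean GC content of 52.0% (SD 6.42, n = 726 summits), against 38.5% in windows 350 bp to the right and 38.5% to the left, and 40.9% of all bases the rule allows. The value at the summit exceeded both flanks in 578 of the 726 (79.6%). The 3 high summits printed at the start had 49.5, 52.5 and 56.4%. The peak was narrow and flanked by dips. In windows of 51 bp the mean was 54.0% at the summit, 41.1% at 150 bp to the left, 38.3% at 300 bp to the right and 42.3% at 2000 bp to the left. Summits in introns showed almost the same profile, with 54.15% at the summit in windows of 51 bp, and those near starts had 54.92%. In the windows reaching 50 bp to each side, introns had 51.6% at the summit and 38.2% to the right. The class near starts had 52.2% in these wider windows, from flanks of 41.3%. The GC content did not follow the score, with means of 51.9% at scores of at least 20 and 52.2% under 5.

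**Figure D4:**
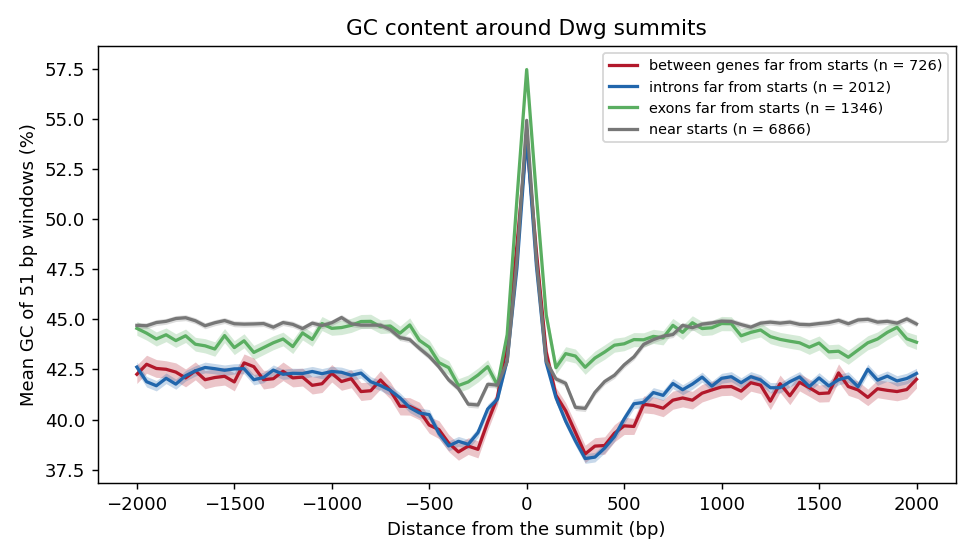
Mean GC content (%) of 51 bp windows by distance from the summit in bp, for the 4 classes of Dwg summits, with shading of 1 standard error over summits. The intergenic class (red) reached 54.0% at the summit and fell to 38.3% at 300 bp to the right, close to the profile of introns (blue).

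Words of 6 letters followed this difference in base composition. Each of the 2080 possible 6-mers, counted together with its complement, was compared between the summit windows and the windows 350 bp to the right by an exact two-sided McNemar test with Benjamini-Hochberg adjustment over all of them. At an adjusted p under 0.05, 373 6-mers (17.9%) were found in more windows at the summit and 313 (15.0%) in fewer. All 36 words without G or C were in fewer, and 29 of the 36 words made of G and C alone were in more. The 10 smallest p-values all belonged to A and T words, led by AAATAA, found in 6.75% of summit windows and 28.7% of flanks (exact McNemar test, adjusted p = 1.9e-25).

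Among the words more frequent at the summit, CAGCGG was found in 11.9% of summit windows, against 3.03% of flanks (adjusted p = 6.6e-09), and CGGCGC in 6.47%, against 0.689% (adjusted p = 2.32e-08, exact McNemar tests). Against the median of words with the same number of G and C letters, the log2 ratio of summit to flank windows was 1.26 higher for CGGCGC and 1.39 higher for ACGCCG, which was in 5.92% of summit windows, against 0.826% of flanks. CAGCGG stood only 0.59 above that median. The summit windows are not independent units, since 276 lie within 1000 bp of one another. With 1 summit kept in any 1000 bp, an alternative chosen after seeing the data, 559 6-mers were called. With all summits the number was 686. Both counts take the directions together, and the words common to both were not counted.

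**Figure D5:**
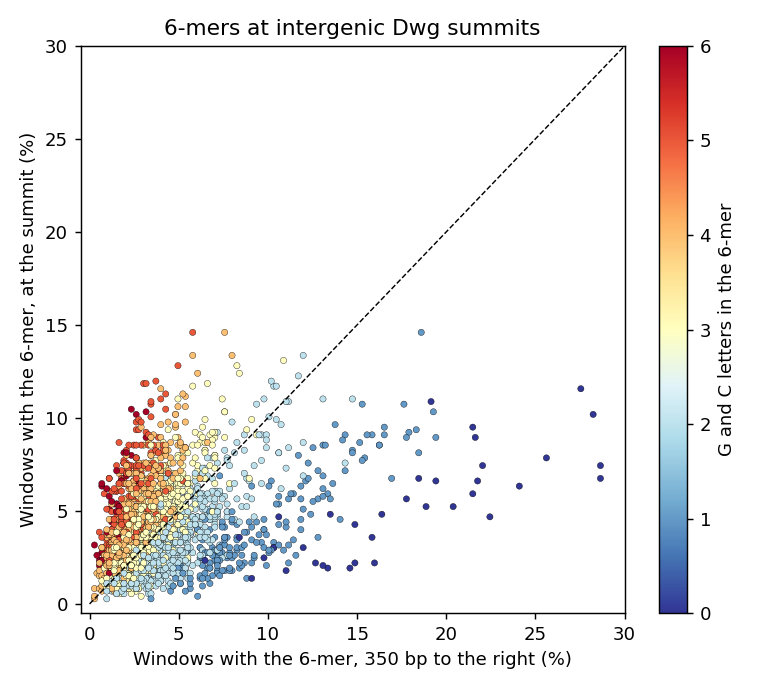
Each point is a 6-mer, placed by the share of flank windows (x axis, %) and of summit windows (y axis, %) of the 726 intergenic summits that hold it, and coloured by its number of G and C letters. Points of many G and C letters lie above the dashed line of equal shares, and points of A and T letters below it, out to 28.7% of flanks and 6.75% of summits.

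Words known from other Drosophila boundary proteins were counted in the same windows, on both strands, and in 369084 windows tiled over the DNA allowed. TGGCGC, part of the CTCF motif, was in 9.09% of summit windows, against 3.31% of right flanks and 3.37% of tiles, and in introns it was in 7.16%, against 3.18% of flanks. GAGAG, bound by GAGA factor, was in 14.3%, against 9.37% of flanks and 11.1% of tiles. CGATA, the core of BEAF-32 sites, was in 11.0%, against 11.6% of flanks and 10.5% of tiles. TGCATA, part of the Su(Hw) motif, was in 4.68%, against 9.23% of flanks and 6.94% of tiles, and the TATA box word TATAAA in 4.27%, against 14.9% and 12.4%. TGGCGC holds 5 G and C letters. Words of its length with this count had a median log2 ratio of summit to right flank windows of 1.355. TATAAA holds 0, and the median for that count was -1.81. Against the right flanks of the intergenic summits both words lay close to these medians, while TGCATA, with 2, lay below its median of -0.547. In left flanks TGGCGC was in 1.93%, GAGAG in 9.09%, CGATA in 13.8%, TGCATA in 7.44% and TATAAA in 15.7% of windows. Medians against left flanks were not taken, and these readings can differ with the side. The shorter words GAGAG and CGATA were not compared in this way.

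The longer words found at promoters were nearly absent, as they were in the other classes far from starts and in the tiles. The DREF word TATCGATA was in 0 of the 726 summit windows, 4 flanks and 0.207% of tiles. The M1BP word GGTCACAC was in 1 window (0.138%), 3 flanks and 0.129% of tiles. In introns TATCGATA was in 0 and GGTCACAC in 4 of 2012 summit windows, and in exons each was in 1 of 1346. Near starts GGTCACAC was in 240 of 6866 summit windows (3.50%), against 0.918% of flanks, while TATCGATA was in 1.15%, against 1.12% of flanks. GGTTCGA, from the B box of tRNA genes, was in 0.551% of summit windows, against 0.413% of flanks and 0.637% of tiles.

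The letters CATTCG, chosen from words at the 1000 highest summits near starts, were in 65 of the 726 intergenic windows (8.95%), against 4.82% of right flanks, 4.82% of left flanks and 4.65% of tiles. Of intergenic summits scoring at least 20, 30 of 217 held it (13.8%), against 4.61% of their right flanks, and of those scoring under 20, 6.88%, against 4.91%. At scores of at least 20 the shares were 12.8% in introns and 15.5% in exons. Near starts the word was in 17.1% of the 1000 highest summits, where it was chosen, and without them in 7.92% of the other 1944 that scored at least 20. Longer forms were rare in every class. CATTCGCA was in 12 of the 726 intergenic summit windows (1.65%), against 3 of their right flanks, and in 1.99% of windows in introns, 1.34% in exons and 1.65% near starts. CCATTCGC was in 6 intergenic windows (0.826%), against 3 right flanks, and in 1.59%, 1.63% and 1.31% of windows in introns, in exons and near starts. The values near starts include the 1000 highest summits, where these words were chosen. Those 1000 held 60 of the 113 windows near starts with CATTCGCA and 54 of the 90 with CCATTCGC. Without them, the other 1944 near starts that scored at least 20 held CATTCGCA in 1.54% and CCATTCGC in 0.823%.

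Of the 6448 coding genes that border DNA the rule allows, 732 (11.4%) bordered a gap with at least 1 of the summits. Gene lists were read against this share. Segmentation genes, which pattern the early embryo, had 5 of 25 genes beside such a gap, and they border long gaps, with a median of 17900 bp of allowed DNA against 2190 bp over all genes. The 4 with the highest were hry with 27 summits over its 2 gaps, hb with 1 of 13.54, slp2 with 1 of 10.72 and wg with 3 up to 9.716. All 8 Hox genes bordered allowed DNA, with a median of 24100 bp, and 0 of the 8 had a summit there.

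Of 9 autophagy (Atg) genes that border allowed DNA, only Atg13, a subunit of the Atg1 kinase complex, had intergenic summits there. This was 11.1% of the 9, against 11.4% over all bordering genes. Summits of the other classes at Atg genes were not counted here. The gap of 4160 bp between Atg13 and stck, an adaptor of integrin adhesion, held 4, with scores of 102.5, 35.13, 11.58 and 4.627. Except the one of 11.58, each had an input-list summit within 100 bp. Chemoreceptor genes had 8 of 106 beside such a gap, led by Gr93d with 4 summits up to 138.3, Or45b with 5 up to 90.8 in the mir-14 gap, Or42a with 2 up to 34.79 and Ir68a with 2 up to 15.73. Blood cell genes had 1 of 9, the GATA factor gene srp with a summit of 5.904, and heat shock genes had 0 of 11.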

How the data were processed

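ChIP-seq was done on S2R+ cells expressing Flag-dwg, with 2 anti-Flag, 2 IgG control and 2 input libraries. Per the methods of the study, the authors trimmed reads with Trim Galore 0.6.4, mapped them to dm6 with Bowtie2 2.3.5.1, used SAMtools 1.6 to retain uniquely mapped reads, and found peaks by MACS2 2.2.6. They deposited 2 summit lists, taken here as pooled over the libraries, whose score is −log10 of the q-value. The list named for a control was taken as the one against IgG. No column of single samples was given, so depth is unknown and intervals cover counting error only.

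Summits on 2L, 2R, 3L, 3R, 4 and X were placed on the Ensembl 115 genes (13945 protein-coding), and sequence and repeat masking came from the RefSeq copy of the same dm6 assembly. Entries for 481 mature microRNA arms were left out of the non-coding genes. Shared summits lay within 100 bp. Shares were compared by two-sided Fisher's exact tests (9 comparisons) and 6-mers by exact McNemar tests, with Benjamini-Hochberg adjustment, in Python 3.11.15 with SciPy 1.17.1, and both were tested on simulated data. The simulated summits were independent, and their windows were drawn with equal base frequencies. Grouping of summits and the GC difference from the flanks were therefore not covered. Named were the 10 highest summits, the 2 highest of each non-coding class within 500 bp of a start, the 5 fullest gaps, the 3 farthest summits, those at the distance limit, up to 4 genes per list, and 6-mers of smallest p. The 6-mers named for their excess over words of equal GC count were picked after their values were seen, as were a few other summits (those without an input partner, on chromosome 4, in transposable elements, or at roX2, mir-184, mir-282, mir-ban and lncRNA:CR44526). One of the 5 fullest gaps is not reported here. The summits and lists were chosen with earlier results of these data known. Alternatives changed the score minimum, list, distances, windows and flanks.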

Additional observations from a re-analysis of the deposited data

How the results depend on the processing

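No paired analysis was possible because the files hold 1 list per control and no values per library, so no library could be left out either. The share of summits near a non-coding start kept its direction and its call against all 3 other classes under every alternative run. Over 98 settings compared, 84 kept their side of the threshold, with the direction of every called difference, or stayed within 1.5 times the count. A score minimum of 10 left 382 intergenic summits and one of 20 left 217, and at a minimum of 10, 351 6-mers were called, with fewer summits tested.

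The share with an input summit changed its calls. Against introns it passed the threshold with a start distance of 2000 bp (85.7%, against 89.3%, adjusted p = 0.046) and a sharing distance of 500 bp (88.7%, against 91.4%, adjusted p = 0.0414, Fisher's exact tests). Against exons it no longer passed at a score of at least 10 (94.5%, against 92.3%) and turned round at 20 (95.4%, against 96.9%). Against the class near starts it no longer passed at a score of at least 5 (91.9%, against 92.5%), 10 (94.5%, against 95.4%) or 20 (95.4%, against 97.2%), or with a start distance of 2000 bp (85.7%, against 87.5%). The repeat-masked share no longer passed against exons at a score of at least 10 (9.42%, against 6.25%) and turned round at 20 (6.45%, against 7.97%), and against the class near starts it no longer passed at 20 (6.45%, against 4.79%). Score minimums also cut the number of summits, and the cause of these changes was not tested.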
